A study of Mus musculus with 6 samples.

Results

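Enterochromaffin (EC) cells were taken here as the Tph1-high enteroendocrine barcodes of the small intestinal epithelium, and 158 of the 60706 cell barcodes in the matrices met that definition. A barcode is the tag of one droplet and stands for a cell, and a UMI is a tagged molecule counted from that droplet. Of all barcodes, 36609 were kept because they held at least 1000 UMIs and at most 30% UMIs from mitochondrially encoded (mt-) genes. Among these, 352 had at least 3 of the 6 RNAs Chga, Chgb, Scg5, Neurod1, Pcsk1n and Cpe and were called enteroendocrine. The EC barcodes were the 158 of these with at least 5 Tph1 UMIs, and the remaining 194 are called Tph1-low.

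The study profiled epithelial suspensions of the mouse small intestine by droplet single-cell RNA sequencing, with 3 libraries from control littermates and 3 from IE-HuR-/- mice. The control mice carried floxed HuR alleles without Cre (HuR fl/fl-Cre-), and their label reads wild-type. The IE-HuR-/- mice carried the same floxed alleles with villin-Cre, a Cre driven by the villin promoter, so that HuR is deleted in intestinal epithelial cells and not in the immune or stromal cells of the mucosa. Per the study's methods, all mice were of C57BL/6 background, were 6 to 8 weeks old, and went without food for 24 h, while the sample labels give normal feeding and drinking. Nothing in the labels ties a library to more or fewer than 1 animal, so p-values measure the spread between these libraries.

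EC cells are the serotonin-producing endocrine cells of the gut. Tph1 catalyses the rate-limiting step from tryptophan, Ddc completes serotonin, and the vesicular transporters Slc18a1 and Slc18a2 load it into granules that are held together by chromogranins A and B. The cells sense nutrients, irritants and stretch at the gut lumen and release serotonin onto nerve endings and neighbouring cells, and many of them also store peptides such as substance P. HuR, the product of Elavl1, is an RNA-binding protein that attaches to U-rich and AU-rich elements of mRNAs and affects their stability and translation.

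The deleted gene was examined before any other RNA. In the sums of EC UMIs, Elavl1 stood at 43.6, 48.9 and 60.5 CPM (counts-per-million, the UMIs of a gene scaled by all UMIs of the sum) in control libraries 1, 2 and 3, and at 71.9, 48.2 and 62.4 CPM in libraries 1, 2 and 3 labelled IE-HuR-/-. The libraries of both labels overlapped, and the log2 fold change was 0.30 (SE 0.24, n = 3 per label, edgeR adjusted p = 0.755). Elavl1 RNA was thus not measured lower under the IE-HuR-/- label, and IE-HuR-/- libraries below means the libraries labelled so. The labels name a kit that reads the 5′ end of transcripts, and where those reads lie relative to the deleted part of Elavl1 is not known here, so this RNA does not check the labels.

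The class was small in every library, although the libraries held between 59518012 and 91818560 UMIs in all. Control libraries 1, 2 and 3 held 32, 42 and 24 EC barcodes, and IE-HuR-/- libraries 1, 2 and 3 held 19, 18 and 23. Their summed depth was 847726, 674881 and 693968 UMIs in controls and 514782, 601901 and 608930 UMIs in IE-HuR-/- libraries. The median EC barcode held 22970 UMIs against 4180 UMIs for kept barcodes outside the enteroendocrine class, so EC barcodes were deeply sampled. The gate favours deep barcodes because it asks for detected RNAs and counted Tph1 UMIs. The median Tph1-low barcode held 25646.5 UMIs, so this depth was not particular to EC barcodes. Control 2 stood apart, with a median of 13760 UMIs and 10.2% mt- UMIs per EC barcode, whereas the other 5 libraries had medians from 23696 to 26405.5 UMIs and from 4.32% to 6.67% mt- UMIs. Of the 158 EC barcode sequences, 3 also occurred in another library, among 435 of 60271 distinct sequences found in 2 or more libraries, and no EC sequence was an EC barcode in both.

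The threshold of 5 Tph1 UMIs divided a wide distribution. Of the 352 enteroendocrine barcodes, 159 held no Tph1 UMI, 35 held 1 to 4, 26 held 5 to 9, 60 held 10 to 49 and 72 held 50 or more, and the median EC barcode held 40.5. Just outside the threshold, the 8 barcodes with 4 Tph1 UMIs had a summed Tph1 level of 176 CPM, with Chga at 825 CPM, Sct at 41934 CPM and Nts at 93403 CPM. Just inside it, the 6 barcodes with 5 Tph1 UMIs had Tph1 at 450 CPM, Chga at 1171 CPM, Sct at 56240 CPM and Cck at 90004 CPM. These sums were carried by a few barcodes, and among the 6 inside the threshold 3 from control 2 had little of a further hormone RNA.

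The levels of the defining markers describe the gate. Tph1 (chromosome 7, 46644641 to 46672537, minus strand, GRCm38) reached 1953, 2316 and 4010 CPM in EC barcodes of control 1, 2 and 3 and 3724, 2856 and 2976 CPM in IE-HuR-/- 1, 2 and 3, while the Tph1-low sums ranged from 5.01 to 29.4 CPM. Of 12100 Tph1 UMIs in all kept barcodes, 11450 lay in EC barcodes (94.6%, 95% Wilson interval 94.2% to 95.0%, counting error only). Chromogranin A (Chga, chromosome 12, 102554969 to 102565028, plus strand) averaged 5543 CPM ± 1776 (mean ± SD over the 6 libraries, here and below unless a label is named) in EC against 444 CPM ± 137 in Tph1-low sums, and chromogranin B (Chgb, chromosome 2, 132781278 to 132795079, plus strand) averaged 21070 CPM ± 6168 against 2524 CPM ± 1108. These 3 RNAs entered the definition, so their levels are no finding and no check of the name. Only 8 kept barcodes outside the enteroendocrine class held 5 or more Tph1 UMIs. Mast cells can also make serotonin, and in EC sums 4 of 8 mast cell markers (Cpa3, Mcpt2, Fcer1a, Ms4a2) had no UMI in 3942188, which allows a level of up to 0.761 CPM. The other 4 had UMIs, with Kit highest at a mean of 3.11 CPM. Together the 8 markers summed to between 1.44 and 8.31 CPM per library.

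RNAs of other cell types were present in EC barcodes at the following levels. The 12 enterocyte markers summed to 31266, 36987 and 34221 CPM in control 1, 2 and 3 and to 22054, 39694 and 39900 CPM in IE-HuR-/- 1, 2 and 3, led by the apolipoprotein Apoa1 at 8602 CPM, against a mean of 63273 CPM in other kept barcodes. Goblet markers summed to between 3108 and 5971 CPM with Tff3 highest, and T or NK markers to between 58.1 and 458 CPM with Gzma highest. The sums of the Paneth markers (13.3 to 51.9 CPM), the erythroid markers (14.8 to 62.5 CPM), the myeloid markers (5.83 to 37.7 CPM), the B or plasma markers (0 to 19.4 CPM), the tuft markers (7.20 to 13.3 CPM), the stem and progenitor markers (0 to 7.41 CPM) and the fibroblast markers (0 to 2.96 CPM) were lower. Neuron or glia markers summed to between 281 and 582 CPM, and Snap25, which endocrine cells also use for exocytosis, was the most abundant, while S100b and Sox10 were at 0. The part of free RNA and of mixed droplets in these levels was not tested, and no doublets were called.

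To describe what sets EC barcodes apart, their summed CPM was compared with that of the Tph1-low enteroendocrine barcodes of the same library. Because Tph1 and the 6 gate RNAs chose these barcodes, the contrast carries no test. With the gate RNAs left out, 3424 RNAs had at least 50 CPM in 1 class. Of these, 175 (5.11%) were higher in EC by a log2 ratio of at least 1 with the same sign in 6 of 6 libraries. By the same rule 34 (0.993%) were lower. Ratios are on the log2(CPM + 20) scale. UMIs are not scaled by transcript length here, so levels are compared between barcodes and not between RNAs. The median log2 ratio of all 3424 was 0.08. The 209 RNAs in both directions became 537 with Tph1 set at 1 in 1000 UMIs, 430 without the 10% of EC barcodes with most UMIs and 78 with a pseudocount of 100 CPM. With the gate RNAs ranked too, the RNAs with the largest positive ratios were Tph1, Afp, Reg4, Cartpt, Tac1, Ccnd2, Tpbg, Slc38a11, Chga and Rgs2. Tph1 and Chga among them are gate RNAs, so their place describes the gate. Those with the largest negative ratios were Zg16, Gip, Pyy, Muc2, Clca1, Fabp5, Asic5, Hba-a2, Isl1 and Spink4.

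**Figure D1:**
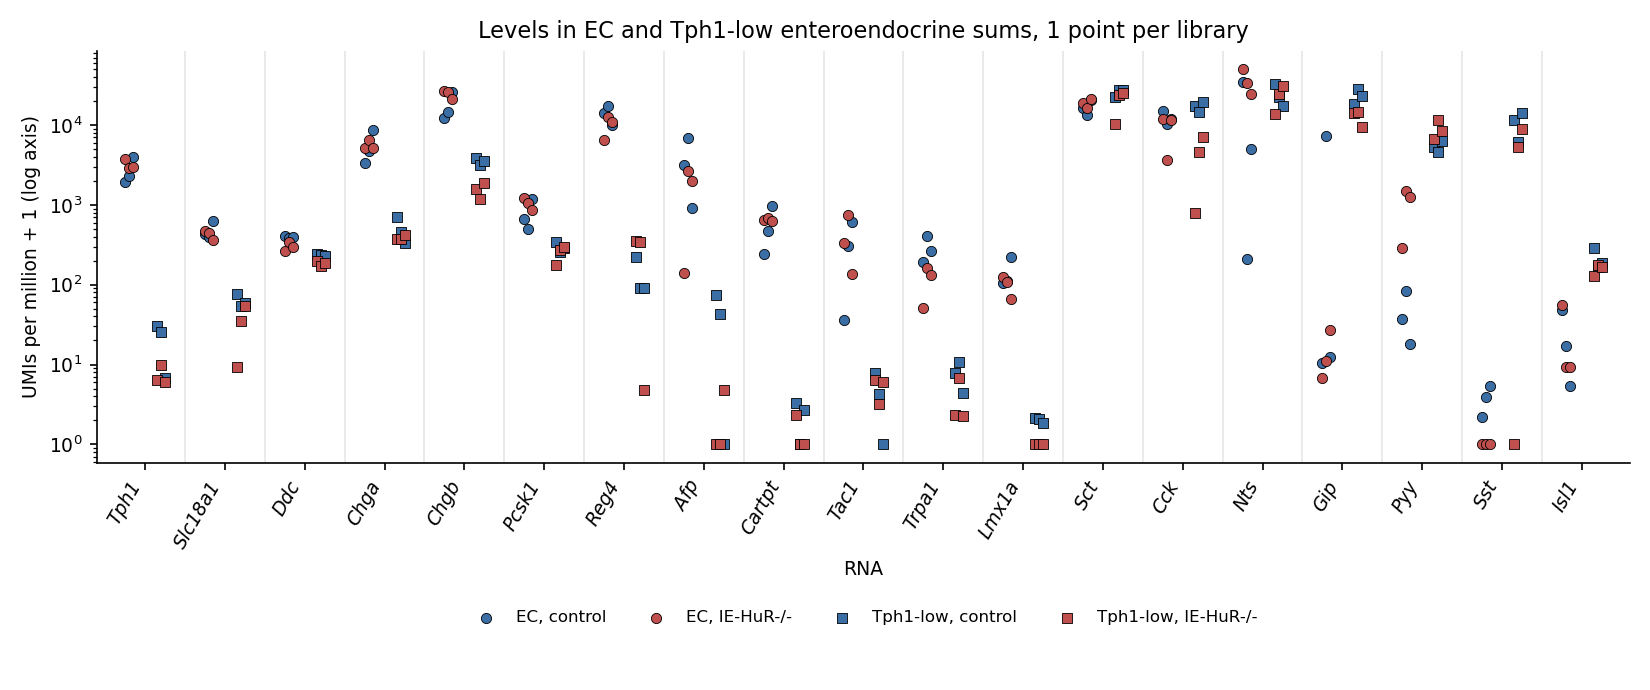
The y axis gives the level of 19 RNAs in CPM plus 1 on a log axis, with 1 point per library (circles for EC sums, squares for Tph1-low sums, blue for control, red for IE-HuR-/-). The circles of Tph1, Reg4, Cartpt and Lmx1a lie above the squares in 6 of 6 libraries, whereas circles and squares of Sct and Cck overlap. Tph1, Chga and Chgb are gate RNAs, so their levels describe the gate.

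Several of the most EC-enriched RNAs encode secreted proteins or peptides. Afp (alpha-fetoprotein, chromosome 5, 90490737 to 90508907, plus strand) was at 3200, 6960 and 919 CPM in EC of control 1, 2 and 3 and at 140, 2625 and 1992 CPM in IE-HuR-/- 1, 2 and 3, and its Tph1-low level did not exceed 73.6 CPM (log2 ratio 6.06). Reg4, a secreted C-type lectin (chromosome 3, 98222156 to 98236748, plus strand), was at 14304, 17482 and 9923 CPM and at 6463, 12728 and 10952 CPM, against a Tph1-low mean of 183 CPM ± 145 (log2 ratio 5.88, 65.3-fold in mean CPM). Every EC value of Reg4 lay above every Tph1-low value. Cartpt, the precursor of the CART peptides (chromosome 13, 99898489 to 99901091, minus strand), was at 242, 474 and 961 CPM in control 1, 2 and 3 and at 651, 686 and 631 CPM in IE-HuR-/- 1, 2 and 3, and at no more than 2.26 CPM in any Tph1-low sum. Tac1, which encodes substance P and neurokinin A (chromosome 6, 7554879 to 7565834, plus strand), was at 35.4, 301 and 617 CPM and at 330, 749 and 135 CPM in the same order. The spread of Tac1 between libraries was wide in both labels, and its lowest EC value, in control 1, was still above its highest Tph1-low value of 6.79 CPM.

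Other RNAs among the largest differences act inside the cell or at its surface. Ccnd2 (cyclin D2) averaged 860 CPM ± 228 in EC and 40 CPM in Tph1-low sums, but barcodes with T cell RNAs had it at 1031 CPM. Rgs2, a regulator of G-protein signalling, averaged 605 CPM ± 128 against 33.7 CPM ± 16.3. The surface glycoprotein Tpbg averaged 274 CPM ± 99.2 against 2.17 CPM. Slc38a11, a member of the amino acid transporter family SLC38, averaged 237 CPM ± 67.8 against 1.01 CPM. On the other side, the goblet cell products Zg16, Muc2, Clca1 and Spink4 were among the 10 RNAs lowest in EC relative to Tph1-low barcodes. Of the 7 markers on the goblet list, all compared, 5 were lower in EC by the rule above (these and Fcgbp) and 1 was higher. Among all RNAs compared, 0.993% were lower and 5.11% higher. Zg16 was at 195 CPM ± 117 in EC, 5782 CPM ± 5576 in Tph1-low and 8917 CPM in other kept barcodes. Agr2, another marker on the goblet list, ran the other way, at 1227 CPM ± 389 in EC against 351 CPM ± 179. The haemoglobin RNA Hba-a2 owed its ratio mainly to control 2, where the Tph1-low sum held 795 CPM against no more than 60.1 CPM in any other library. Fabp5, a fatty acid-binding protein, was at 71.3 CPM against 856 CPM.

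The serotonin list held 17 RNAs, of which 16 had a UMI in EC barcodes. Among the 9 that were abundant enough to compare and not part of the gate, 2 were higher in EC by the rule above and none was lower, against 5.11% and 0.993% of all RNAs. The vesicular monoamine transporter Slc18a1 (chromosome 8, 69037711 to 69089235, minus strand) was at 425, 397 and 623 CPM in control 1, 2 and 3 and at 464, 442 and 363 CPM in IE-HuR-/- 1, 2 and 3, against a Tph1-low mean of 46.8 CPM ± 23.01 (log2 ratio 2.82). Qdpr, which regenerates the tetrahydrobiopterin cofactor of Tph1, averaged 242 CPM ± 65.1 against 68.5 CPM ± 23.3. Ddc, the decarboxylase that completes serotonin, averaged 348 CPM ± 59.9 against 211 CPM ± 29.4, and Gch1, the entry enzyme of cofactor synthesis, averaged 197 CPM ± 54.2 against 177 CPM ± 45.5. The other vesicular transporter, Slc18a2, was scarce, at 32.8 CPM ± 24.5 against 1.40 CPM ± 1.45. The serotonin reuptake transporter Slc6a4 was at 12.4 CPM ± 7.10 in EC and 20.5 CPM ± 7.10 in Tph1-low sums, and the degrading enzyme Maoa at 274 CPM ± 172 and 402 CPM ± 120. Aanat, the next enzyme towards melatonin, had no UMI in either class.

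Of 20 listed peptide hormones and neuropeptides, 19 were found in the files by symbol and 12 were abundant enough to compare, with 3 higher (Tac1, Ucn3, Cartpt) and 2 lower (Gip, Pyy) in EC, against 5.11% and 0.993% of all RNAs compared. Ucn3, urocortin 3, averaged 67.1 CPM ± 34.1 against 5.36 CPM ± 6.64. Secretin was shared by both classes, with Sct at 17795 CPM ± 2923 in EC and 22799 CPM ± 6397 in Tph1-low sums. The sums of Cck, cholecystokinin, were 10754 CPM ± 3812 and 10678 CPM ± 7552, but 77.5% of its EC UMIs lay in 10 barcodes and the median EC barcode had none. Neurotensin, Nts, was at 34992, 206 and 4951 CPM in EC of control 1, 2 and 3 and at 49629, 33670 and 24597 CPM in IE-HuR-/- 1, 2 and 3, lowest in control 2 and highest in IE-HuR-/- 1. Gip, the incretin of K cells, was at 9.44, 7312 and 11.5 CPM in control and 5.83, 9.97 and 26.3 CPM in IE-HuR-/- EC sums, and the value of control 2 came almost wholly from 1 barcode. Without control 2 the log2 ratio of Gip went from -3.84 to -8.92. Pyy averaged 529 CPM in EC and 7131 CPM in Tph1-low sums. Sst, the somatostatin of D cells, did not meet the rule because 1 Tph1-low sum held none, and it averaged 1.41 CPM ± 1.84 in EC against 7710 CPM ± 5026. Penk and Vip had no UMI in EC barcodes.

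Proteins of the secretory granule and of exocytosis were compared in the same way. Of 26 listed, 15 outside the gate were abundant enough, 7 were higher and none lower, where 5.11% of all RNAs were higher and 0.993% lower, and their median log2 ratio was 0.96 against 0.08 for all RNAs. The prohormone convertase Pcsk1 averaged 911 CPM ± 289 in EC and 270 CPM ± 55.1 in Tph1-low sums, whereas its relative Pcsk2 was at 3.47 CPM ± 4.27 and 7.14 CPM ± 5.88. The calcium sensor Syt7 averaged 779 CPM ± 195 against 228 CPM ± 45.1, and the membrane fusion protein Snap25 averaged 375 CPM ± 108 against 44.9 CPM ± 25.02. Rab3c, a small GTPase of secretory vesicles, averaged 140 CPM ± 30.5 against 13.8 CPM ± 13.3. The others that were higher were the granule proteins Vgf and Ptprn and the synaptotagmin Syt13. Secretogranin II (Scg2) was at 599 CPM ± 411 in EC and 1128 CPM ± 465 in Tph1-low sums.

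Sensory receptors and ion channels differed in both directions. Of 34 listed symbols, 32 were found, 10 were compared, 6 were higher and 3 lower in EC, against 5.11% and 0.993% of all RNAs. The irritant channel Trpa1 (chromosome 1, 14872648 to 14918862, minus strand) was at 190, 405 and 265 CPM in control 1, 2 and 3 and at 50.5, 161 and 130 CPM in IE-HuR-/- 1, 2 and 3, and at no more than 9.63 CPM in a Tph1-low sum. Each IE-HuR-/- value was below each control value, as for 7.42% of all RNAs tested between labels, and edgeR did not call the difference (adjusted p = 0.521). The cation channel Trpm2 averaged 209 CPM ± 65.9 against 12.7 CPM ± 4.77, the sodium channel Scn3a 344 CPM ± 85.9 against 29.4 CPM ± 11.6, and the calcium channel subunit Cacna2d1 424 CPM ± 133 against 112 CPM ± 34.7. The short-chain fatty acid receptor Ffar2 averaged 197 CPM ± 57.8 against 23.1 CPM ± 8.76, and the galanin receptor Galr1 114 CPM ± 44.0 against 20.01 CPM ± 7.94. Lower in EC were the long-chain fatty acid receptor Ffar1 (60.6 CPM ± 26.3 against 164 CPM ± 43.7), the sulfonylurea receptor Abcc8 (7.52 CPM ± 3.54 against 64.9 CPM ± 15.9) and the bile acid-sensitive channel Asic5 (3.07 CPM ± 3.85 against 172 CPM ± 80.6). Npy1r, a receptor of neuropeptide Y and peptide YY, was at 47.9 CPM ± 19.6 in EC and 0.311 CPM in Tph1-low sums. The stretch channel Piezo2, the glutamate receptor Gria2 and the substance P receptor Tacr1 had no UMI in EC barcodes, which allows up to 0.761 CPM each.

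Transcription factors of the endocrine lineage were compared next. Of 26 listed, 15 outside the gate were compared, 4 were higher in EC and 1 lower, against 5.11% and 0.993% of all RNAs compared. Lmx1a, a LIM homeobox factor needed for serotonin production (chromosome 1, 167689237 to 167848741, plus strand), was at 103, 110 and 220 CPM in control 1, 2 and 3 and at 124, 106 and 65.7 CPM in IE-HuR-/- 1, 2 and 3, and at no more than 1.13 CPM in a Tph1-low sum. The forkhead factor Foxa1 averaged 199 CPM ± 45.6 against 22.5 CPM ± 4.87, Sox4 averaged 416 CPM ± 115 against 103 CPM ± 59.6, and the zinc finger factor Myt1 averaged 78.4 CPM ± 19.8 against 24.6 CPM ± 9.91. Isl1, another LIM homeobox factor, was lower, at 23.1 CPM ± 21.9 against 184 CPM ± 54.5. Insm1, common to endocrine cells, was at 200 CPM ± 55.9 and 105 CPM ± 37.7, and Fev, a factor of serotonin-producing neurons, at 55.3 CPM ± 9.81 and 29.1 CPM ± 9.18. Hhex, a factor of D cells, had no UMI in EC barcodes and averaged 25.9 CPM in Tph1-low sums.

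EC barcodes were not alike among themselves. Calling an RNA high in a barcode at 1000 CPM or more, Reg4 was high in 79 of 158 EC barcodes, and at least 1 of Cck, Nts, Ghrl, Gip and Gcg was high in 36. Only 4 barcodes were high in both, 75 in Reg4 alone, 32 in a hormone alone and 47 in neither. These classes are ranges of a level and not cell types. Control 1, 2 and 3 held 12, 22 and 13 barcodes high in Reg4 alone, and IE-HuR-/- 1, 2 and 3 held 9, 11 and 8, so every library contributed. Barcodes high in a hormone alone numbered 10, 5 and 3 in control and 6, 3 and 5 in IE-HuR-/- libraries.

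**Figure D2:**
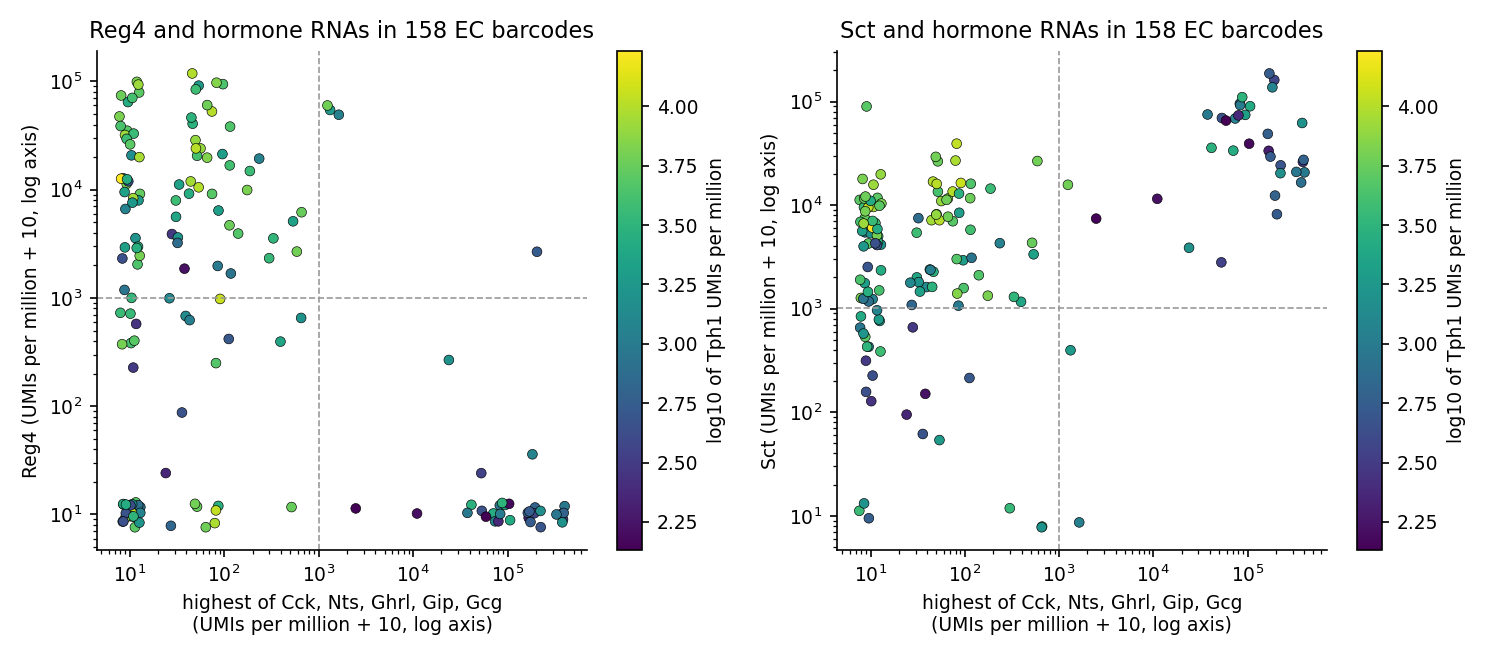
Each point is 1 of 158 EC barcodes, with the highest of Cck, Nts, Ghrl, Gip and Gcg on the x axis and Reg4 (left) or Sct (right) on the y axis, all in CPM plus 10 on log axes, zeros spread around 10, and colour giving log10 of Tph1 CPM. The dashed lines mark 1000 CPM, and 4 barcodes lie above both lines for Reg4.

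Barcodes high in a hormone alone and those high in Reg4 alone were set side by side for the RNAs named here. As sums over barcodes, Tph1 was at 811 CPM in the hormone barcodes and at 3947 CPM in the Reg4 barcodes. Chga was at 535 and 8225 CPM, Chgb at 2430 and 28192 CPM, and Slc18a1 at 100.1 and 666 CPM, in the same order. The order was the opposite for secretin, with Sct at 53633 and 6056 CPM. The median depth was 24063.5 and 22462 UMIs per barcode, in the same order. Tac1, Cartpt, Trpa1, Lmx1a, Ucn3 and Slc18a2 had no UMI in any of the 32 hormone barcodes, which allows up to 3.27 CPM each and up to 9.38% of barcodes with a UMI at this depth, not of cells with the RNA. In barcodes high in Reg4 alone these RNAs had UMIs in 47 (Tac1), 55 (Cartpt), 58 (Trpa1), 65 (Lmx1a), 35 (Ucn3) and 19 (Slc18a2) of 75. In the 47 barcodes high in neither, the numbers were 20, 29, 10, 30, 5 and 3, in the same order. The zeros hold only without the 4 barcodes high in both. With those counted in, the 36 barcodes high in a hormone had UMIs in 3, 2, 3, 4, 3 and 4, in the same order.

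The RNA of a second hormone could dominate a barcode. Nts reached 402182 CPM in 1 EC barcode, Gip 205083 CPM, Cck 192144 CPM and Ghrl 56768 CPM. Cck was high in 22 EC barcodes, Nts in 22, Ghrl in 13, Gcg in 4 and Gip in 1. Cck and Nts were high together in 9, Cck and Ghrl in 11, and Nts and Ghrl in 6. Sct was high in 130 of 158 EC barcodes, among them all 32 barcodes high in a hormone alone and 28 of the 47 high in neither. EC barcodes thus ranged from those with Tph1, Reg4, Cartpt or Tac1 to those with Tph1, Sct and a further gut hormone.

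Across EC barcodes the peptide and sensor RNAs overlapped in part. All 13 barcodes high in Trpa1 were high in Reg4, and 14 of the 15 high in Tac1 were too. Cartpt was high in 31 barcodes, 24 of them high in Reg4 and 3 of them high in Tac1. Across the 158 barcodes the Spearman correlation of CPM was 0.77 between Reg4 and Trpa1, 0.61 between Trpa1 and Lmx1a, 0.56 between Reg4 and Lmx1a, and 0.41 between Tac1 and Reg4. It was -0.33 between Reg4 and Nts, -0.39 between Cartpt and Nts, and 0.52 between Sct and Cck. These are descriptions, since barcodes of a library share its depth and free RNA and many values are 0.

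Detection was also compared at equal depth, with each barcode thinned to 5000 UMIs. This left 139 EC barcodes (19 were shallower), 165 Tph1-low barcodes (29 were shallower) and 2908 barcodes with at least 3 of 5 T cell receptor complex RNAs (3335 were shallower), which should lack these RNAs. Reg4 was detected in 59.0% of EC, 6.06% of Tph1-low and 3.61% of T cell barcodes, and without thinning in 63.3% of EC barcodes. Cartpt was detected in 46.8% of EC, 0% of Tph1-low and 0.103% of T cell barcodes, and 0 of 165 allows up to 1.82% of Tph1-low barcodes with a UMI at this depth. Without thinning, 4 of 194 Tph1-low barcodes (2.06%) held a Cartpt UMI. Lmx1a was detected in 38.1%, 0% and 0.0688%, Tac1 in 30.9%, 0.606% and 0.206%, and Trpa1 in 28.8%, 1.82% and 0.138%. For these RNAs the share in EC was well above that in T cell barcodes. Sct was found in 9.77% of T cell barcodes and Nts in 13.4%, against 97.1% and 20.9% of EC barcodes, so low Nts values in EC barcodes lie near the background. Elavl1 was detected in 25.2% of EC, 26.7% of Tph1-low and 30.02% of T cell barcodes.

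The number of EC barcodes was then compared between labels. They made up 0.469%, 0.471% and 0.557% of kept barcodes in control 1, 2 and 3 (95% Wilson intervals 0.332% to 0.661%, 0.348% to 0.636% and 0.375% to 0.828%), and 0.360%, 0.314% and 0.415% in IE-HuR-/- 1, 2 and 3 (0.231% to 0.562%, 0.199% to 0.496% and 0.277% to 0.622%). The mean was 0.499% ± 0.0506 (SD, n = 3) in control and 0.363% ± 0.0506 (SD, n = 3) in IE-HuR-/- libraries, a difference of -0.136 percentage points (two-sided exact permutation p = 0.1, the smallest that 3 against 3 libraries can give). The libraries of both labels did not overlap, but the intervals of single libraries did. With 4 of the 6 gate RNAs required the difference was -0.0766 points (exact permutation p = 0.2), and without barcodes high in a hormone, an alternative chosen after seeing the data, it was -0.125 points (exact permutation p = 0.2). The enteroendocrine class as a whole followed the same order, at 1.11% ± 0.205 against 0.831% ± 0.103 of kept barcodes (exact permutation p = 0.1, n = 3 per label). The gate of 1000 UMIs and 30% mt- UMIs and the makeup of each cell suspension set these shares too, and their part was not tested. Barcodes with T cell receptor complex RNAs were 983 of 6830, 1233 of 8923 and 669 of 4307 kept barcodes in control 1, 2 and 3. In IE-HuR-/- 1, 2 and 3 they were 1081 of 5277, 1138 of 5732 and 1139 of 5540. Erythroid markers ran the other way in other kept barcodes, with a mean of 16800 CPM in control and 7890 CPM in IE-HuR-/- libraries.

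Within the enteroendocrine class the EC share did not separate the labels. It was 47.1%, 47.7% and 41.4% in control 1, 2 and 3 and 50%, 33.96% and 48.9% in IE-HuR-/- 1, 2 and 3. The means were 45.4% ± 3.49 and 44.3% ± 8.97 (SD, n = 3 per label, two-sided exact permutation p = 1). The direction of this difference changed without control 2 (0.0804 points) and without IE-HuR-/- 2 (4.08 points). The median depth (p = 0.6), the median share of mt- UMIs (p = 0.8) and the median number of genes of EC barcodes (p = 0.8) did not separate the labels either by the same exact permutation test, n = 3 per label.

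**Figure D3:**
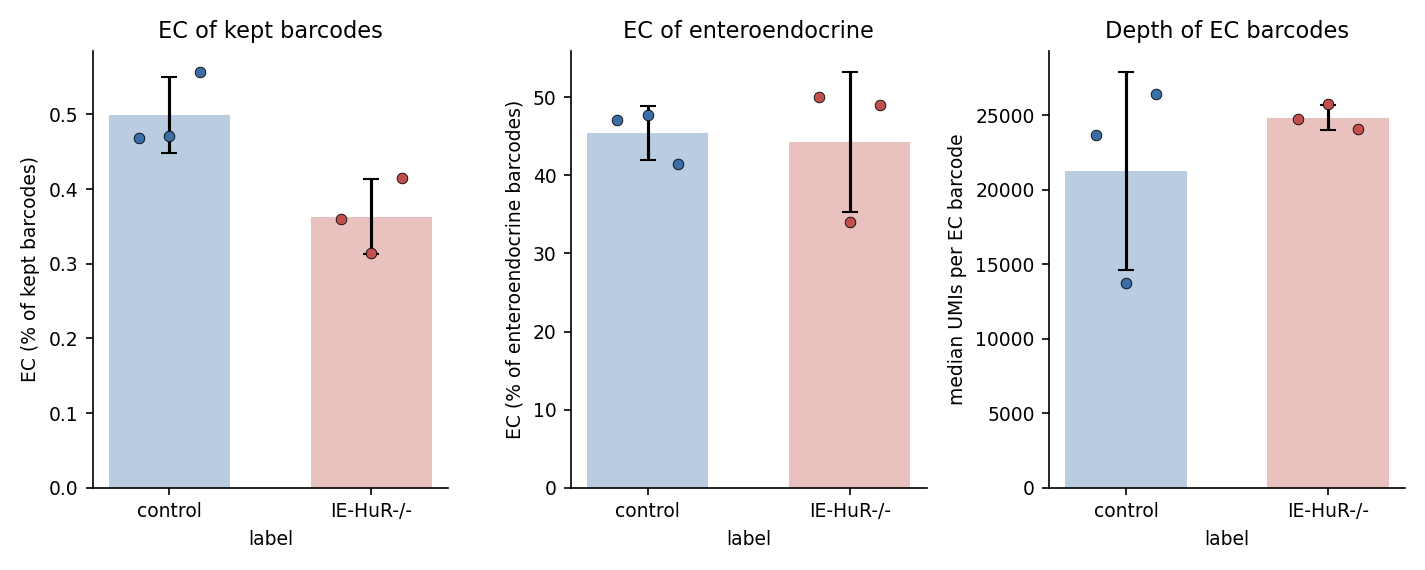
Bars give the mean and SD of 3 libraries per label, with 1 point per library, for EC barcodes as a percentage of kept barcodes, as a percentage of enteroendocrine barcodes, and for the median UMIs per EC barcode. In the first panel the 3 control points (0.469% to 0.557%) lie above the 3 IE-HuR-/- points (0.314% to 0.415%), and in the others the labels overlap.

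To find RNAs that differed between labels within EC barcodes, UMIs were summed per library and tested with edgeR's quasi-likelihood test, 3 sums against 3. Of 6939 RNAs tested, leaving out the 7 of the gate, 18 (0.259%) passed a Benjamini-Hochberg adjusted p of 0.05. Of these, 11 (0.159%) were higher and 7 (0.101%) lower in IE-HuR-/- sums, and 594 RNAs had an unadjusted p under 0.05. The libraries of both labels did not overlap for any of the 18, as was the case for 6.96% of RNAs tested in the higher and 7.42% in the lower direction. In Tph1-low sums the same test called 546 of 7386 RNAs (7.39%), and in the sums of other kept barcodes, which hold many more UMIs, 7980 of 14764 (54.1%). The EC count rested on single libraries: it was 8 without control 2, 40 without control 3, 9 without IE-HuR-/- 2 and 10 without IE-HuR-/- 3. Only Mt1, Nr4a1 and Akr1b8 were called in every alternative that tested them (21, 22 and 17 alternatives).

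Mt1, a metallothionein that binds zinc and copper (chromosome 8, 94179082 to 94180327, plus strand), was higher in every IE-HuR-/- library. Its EC sums stood at 42.5, 28.2 and 30.3 CPM in control 1, 2 and 3 and at 828, 655 and 949 CPM in IE-HuR-/- 1, 2 and 3 (log2 fold change 4.62, SE 0.25, edgeR adjusted p = 4.06e-07). The aldo-keto reductase Akr1b8 (chromosome 6, 34354119 to 34368463, plus strand) was at 0, 1.48 and 0 CPM in control and 19.4, 51.5 and 37.8 CPM in IE-HuR-/- sums (edgeR adjusted p = 0.00276), with 1 UMI behind the control values, so no fold is given. Other kept barcodes showed Mt1 at 202 CPM in control and 1822 CPM in IE-HuR-/- libraries, and Akr1b8 at 3.17 and 43.5 CPM. The part of free RNA in the EC values of these RNAs was not tested.

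Of 5 RNAs of MHC class II antigen presentation on the list from earlier results, 2 were called higher by edgeR in EC sums of IE-HuR-/- libraries, against 0.159% of all RNAs tested. The summed B or plasma markers moved with them in EC sums, from 3.54, 0 and 2.88 CPM in control 1, 2 and 3 to 19.4, 16.6 and 11.5 CPM in IE-HuR-/- 1, 2 and 3. Of the cells on that list, B cells are rich in class II RNAs, but the B cell markers Cd79a and Ms4a1 were at 0 and Igkc was highest. Myeloid markers, whose cells include types rich in class II RNAs, ran the other way, from 37.7, 23.7 and 23.1 CPM to 5.83, 13.3 and 11.5 CPM. The part of either in the result was not tested. H2-Ab1, a chain of MHC class II (chromosome 17, 34257689 to 34269419, plus strand), was at 81.4, 62.2 and 73.5 CPM in control 1, 2 and 3 and at 322, 503 and 673 CPM in IE-HuR-/- 1, 2 and 3 (log2 fold change 2.84, SE 0.27, edgeR adjusted p = 0.000424). H2-DMb1, a chain of the complex that loads peptides on class II molecules, was at 8.26, 2.96 and 2.88 CPM and at 27.2, 78.1 and 78.8 CPM (log2 fold change 3.66, SE 0.52, edgeR adjusted p = 0.0126). The partner chains and the invariant chain did not pass edgeR's test although DESeq2 called all 3, with log2 fold changes of 4.43 for H2-Aa (edgeR adjusted p = 0.225), 3.31 for H2-Eb1 (0.334) and 3.82 for Cd74 (0.0653). H2-Aa was at 18.9, 37.0 and 4.32 CPM in control and at 183, 454 and 626 CPM in IE-HuR-/- sums, and its spread within each label was wide. Other kept barcodes held H2-Ab1 at 209 and 849 CPM under the control and IE-HuR-/- label. H2-Ab1 was not called with the limit of 15% mt- UMIs (log2 fold change 2.68), without barcodes over 5% enterocyte UMIs (1.98), or with Tph1 set at 1 in 1000 UMIs (1.68).

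Nr4a1 and Ckb rose as well. Nr4a1, an orphan nuclear receptor encoded by an immediate-early gene (chromosome 15, 101254269 to 101274795, plus strand), was at 7.08, 10.4 and 17.3 CPM in control 1, 2 and 3 and at 77.7, 58.1 and 57.5 CPM in IE-HuR-/- 1, 2 and 3 (log2 fold change 2.53, SE 0.32, edgeR adjusted p = 0.00276), while other kept barcodes held 1.93 and 4.05 CPM. Of the 14 listed immediate-early and heat shock RNAs, edgeR called none, 2 had an unadjusted p under 0.05 (8.56% of all RNAs tested did) and DESeq2 called 1 (Atf3). A positive log2 fold change was found for 11 of the 14, against 3400 of all 6939 RNAs tested. Their median was 0.40, against -0.01 for all RNAs. Ckb, the brain-type creatine kinase that buffers ATP (chromosome 12, 111669361 to 111672338, minus strand), was at 203, 202 and 236 CPM in control and at 474, 495 and 507 CPM in IE-HuR-/- sums (log2 fold change 1.25, SE 0.17, edgeR adjusted p = 0.0044). The values of Ckb within each label were close together, and other kept barcodes averaged 279.5 CPM in control and 342 CPM in IE-HuR-/- libraries. In the fit with replicate number as a block Ckb was not called (adjusted p = 0.0571).

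A further 5 RNAs rose, Fcna among them, which was chosen after its values were seen. The gastrointestinal glutathione peroxidase Gpx2 was at 74.3, 35.6 and 92.2 CPM in control 1, 2 and 3 and at 587, 307 and 286 CPM in IE-HuR-/- 1, 2 and 3 (log2 fold change 2.59, SE 0.35, edgeR adjusted p = 0.0229). Acta1, the skeletal muscle actin, was at 24.8, 38.5 and 67.7 CPM and at 484, 337 and 862 CPM (3.77, SE 0.47, edgeR adjusted p = 0.0351), with 18.4 and 1107 CPM in other kept barcodes. The adhesion molecule family member Ceacam10 was at 55.4, 66.7 and 107 CPM and at 272, 179 and 174 CPM (1.51, SE 0.24, edgeR adjusted p = 0.0183). In other kept barcodes Ceacam10 averaged 2.32 CPM over the 6 libraries. The lectin Fcna rose from between 2.96 and 7.08 CPM to between 26.3 and 49.8 CPM (edgeR adjusted p = 0.00775), and Gmds, the GDP-mannose dehydratase of fucose synthesis, from between 31.1 and 67.7 CPM to between 98.5 and 136 CPM (edgeR adjusted p = 0.0398).

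**Figure D4:**
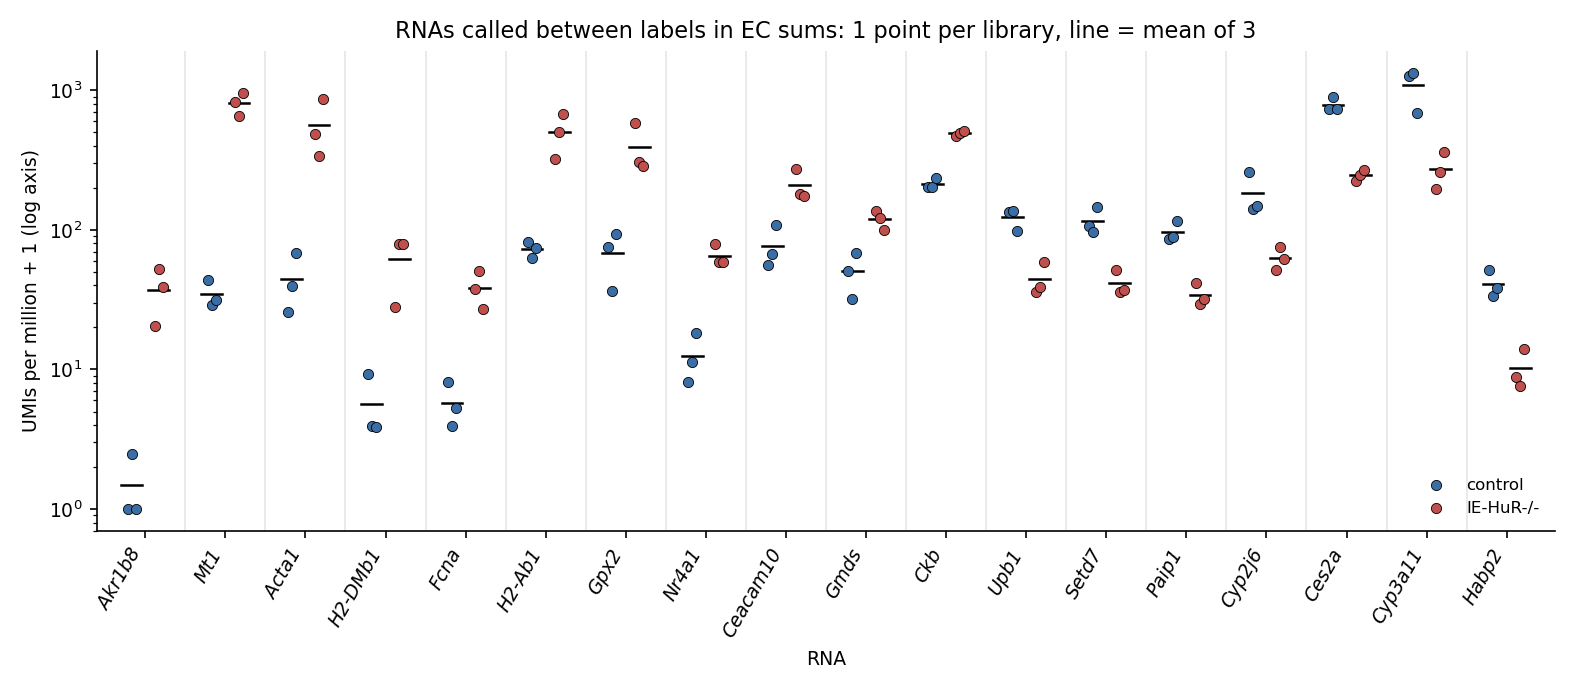
Each of the 18 RNAs called between labels in EC sums is shown in CPM plus 1 on a log axis, with 1 point per library (blue control, red IE-HuR-/-) and a line at the mean of 3. The control points of Mt1 lie between 28.2 and 42.5 CPM and the IE-HuR-/- points between 655 and 949.

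The 7 RNAs that fell included Ces2a, Cyp3a11 and Cyp2j6. The carboxylesterase Ces2a (chromosome 8, 104734003 to 104741634, plus strand) was at 738, 889 and 729 CPM in control 1, 2 and 3 and at 223, 246 and 269 CPM in IE-HuR-/- 1, 2 and 3 (log2 fold change -1.63, SE 0.20, edgeR adjusted p = 0.00276). Cyp3a11, a cytochrome P450 with close paralogs that can share reads (chromosome 5, 145854426 to 145879964, minus strand), was at 1261, 1341 and 692 CPM and at 196, 259 and 363 CPM (-1.98, SE 0.33, edgeR adjusted p = 0.0398). Another cytochrome P450, Cyp2j6, was at 260, 139 and 147 CPM and at 50.5, 74.8 and 60.8 CPM (-1.51, SE 0.27, edgeR adjusted p = 0.0398). Ces2a and Cyp3a11 were higher in other kept barcodes than in EC barcodes under both labels, with Cyp3a11 at 2011 and 395 CPM there in control and IE-HuR-/- libraries. Ces2a was not called without barcodes over 5% enterocyte UMIs (log2 fold change -1.59), without the 10% of EC barcodes with most UMIs (-1.94), or with Tph1 set at 1 in 1000 UMIs (-1.33).

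The other RNAs that fell averaged more in EC than in other kept barcodes. The lysine methyltransferase Setd7 was at 105, 96.3 and 144 CPM in control 1, 2 and 3 and at 50.5, 34.9 and 36.1 CPM in IE-HuR-/- 1, 2 and 3 (log2 fold change -1.46, SE 0.23, edgeR adjusted p = 0.0182). Paip1, a partner of the poly(A)-binding protein in translation, was at 84.9, 87.4 and 115 CPM and at 40.8, 28.2 and 31.2 CPM (-1.47, SE 0.24, edgeR adjusted p = 0.0183). The secreted protease Habp2 fell from between 32.6 and 50.7 CPM to between 6.65 and 13.1 CPM (edgeR adjusted p = 0.0369), and Upb1, an enzyme of pyrimidine breakdown, from between 97.99 and 135 CPM to between 34.97 and 57.5 CPM (edgeR adjusted p = 0.0398). Habp2 averaged 0.143 CPM and Upb1 11.3 CPM in other kept barcodes. In the means of each label, 8 of the 18 RNAs called were at least as high in EC as in other kept barcodes under both labels (Nr4a1, Ceacam10, Fcna, Gmds, Setd7, Paip1, Habp2, Upb1), 7 were lower in EC under both, and 3 (Ckb, Acta1, Cyp2j6) changed order between labels. Several of these calls were lost in many alternatives: Gmds was called in 8 of 22, Upb1 in 9 of 22, Cyp2j6 in 10 of 21, Habp2 in 10 of 20, Cyp3a11 in 12 of 21, Gpx2 in 13 of 21, Ceacam10 in 14 of 22, H2-DMb1 in 14 of 18, Acta1 in 15 of 21, and Setd7 and Paip1 in 16 of 22.

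Over the serotonin, peptide, granule, sensor and transcription factor lists, 73 RNAs outside the gate were tested, edgeR called 0 of them, 14 had an unadjusted p under 0.05 against 8.56% of all RNAs tested, and DESeq2 called 1 (Pyy). In the alternatives edgeR called Iapp, the islet amyloid polypeptide, in 6 and the granule protein Ptprn in 1, without control 3. Iapp was at 0, 8.89 and 0 CPM in control 1, 2 and 3 and at 50.5, 28.2 and 42.7 CPM in IE-HuR-/- 1, 2 and 3 (edgeR adjusted p = 0.101). The median log2 fold change was -0.01 for 13 serotonin RNAs, 0.58 for 10 peptides, 0.04 for 19 granule RNAs, 0.18 for 12 sensors and -0.06 for 19 transcription factors, against -0.01 for all RNAs. Pyy was at 36.6, 83.0 and 17.3 CPM in control 1, 2 and 3 and at 288, 1489 and 1260 CPM in IE-HuR-/- 1, 2 and 3. Those labels did not overlap for Pyy, but 95.6% of its EC UMIs lay in 10 barcodes and 36.4% in 1. The gate RNA Tph1 averaged 2760 CPM ± 1098 in control and 3185 CPM ± 470 in IE-HuR-/- sums, and because it chose the barcodes it was given no call. Among the 9 listed Hu and other RNA-binding proteins tested, edgeR and DESeq2 called none, 2 had an unadjusted p under 0.05 (8.56% of all RNAs did) and the median was -0.14. Of 7 RNAs for mitochondrial proteins, edgeR and DESeq2 called none, none had an unadjusted p under 0.05, and the median was 0.19.

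A list of 21 RNAs known from earlier results on these libraries to differ by label in other epithelial barcodes was followed into EC barcodes. As the list was chosen on these samples, its direction is not independent evidence. Of its 17 members tested, edgeR called 5 higher (Acta1, Mt1, Akr1b8, H2-Ab1, H2-DMb1) and 1 lower (Cyp3a11), against 0.259% called among all RNAs tested, and DESeq2 called 10, adding Cd74, Bche, H2-Aa and H2-Eb1. An unadjusted p under 0.05 was found for 13 of the 17, against 8.56% of all. Not called by edgeR were Reg3b, an antibacterial lectin, at 1779, 289 and 28.8 CPM in control 1, 2 and 3 and 5484, 2308 and 2775 CPM in IE-HuR-/- 1, 2 and 3 (log2 fold change 2.36, edgeR adjusted p = 0.73), and Bche, butyrylcholinesterase, at 75.5, 69.6 and 30.3 CPM and 5.83, 14.95 and 19.7 CPM (-2.04, edgeR adjusted p = 0.179). The control values of Reg3b spanned from 28.8 to 1779 CPM, and its log2 fold change was -0.15 without the 10% of EC barcodes with most UMIs. Saa1 had no UMI in the control EC sums and stood at 71.9, 14.95 and 8.21 CPM in IE-HuR-/- 1, 2 and 3, too few for the test.

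Whether the label difference was particular to EC barcodes was tested as the interaction of class and label over 12 sums, with library as a block. EC and Tph1-low sums of a library come from the same cell suspension. Of 8124 RNAs, 1 (0.0123%) was called by edgeR and 1 by DESeq2, and 438 had an unadjusted p under 0.05. That RNA was Vim, the intermediate filament vimentin (chromosome 2, 13573927 to 13582826, plus strand), at 17.7, 87.4 and 127 CPM in EC of control 1, 2 and 3 and at 15.5, 31.6 and 34.5 CPM in IE-HuR-/- 1, 2 and 3. In Tph1-low sums it was at 14.7, 46.0 and 34.4 CPM in control and at 79.0, 73.9 and 249 CPM in IE-HuR-/- libraries. The label difference was -1.39 in EC and 2.16 in Tph1-low sums, and the difference between them was -3.46 (SE 0.43, edgeR adjusted p = 0.00744). The EC values of both labels overlapped. Fibroblast markers summed to 861 CPM in the Tph1-low sum of IE-HuR-/- 3 and to at most 2.52 CPM in the other 5, and without the barcodes that held fibroblast or erythroid markers the difference for Vim was -3.15 (edgeR adjusted p = 0.00561). Myeloid markers averaged 28.2 CPM in control and 10.2 CPM in IE-HuR-/- EC sums, and 7.54 and 6.13 CPM in Tph1-low sums. B or plasma markers averaged 2.14 and 15.8 CPM in EC and 2.62 and 14.7 CPM in Tph1-low sums, in the same order. The part of these cell types in the values of Vim was not tested. Vim was not called without control 2 (-3.57, edgeR adjusted p = 0.126), without control 3 (-3.08, 0.161), with the limit of 15% mt- UMIs (-3.39, 0.097) or without the 10% of EC barcodes with most UMIs (-3.16, 0.0867), and the difference stayed negative in each.

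**Figure D5:**
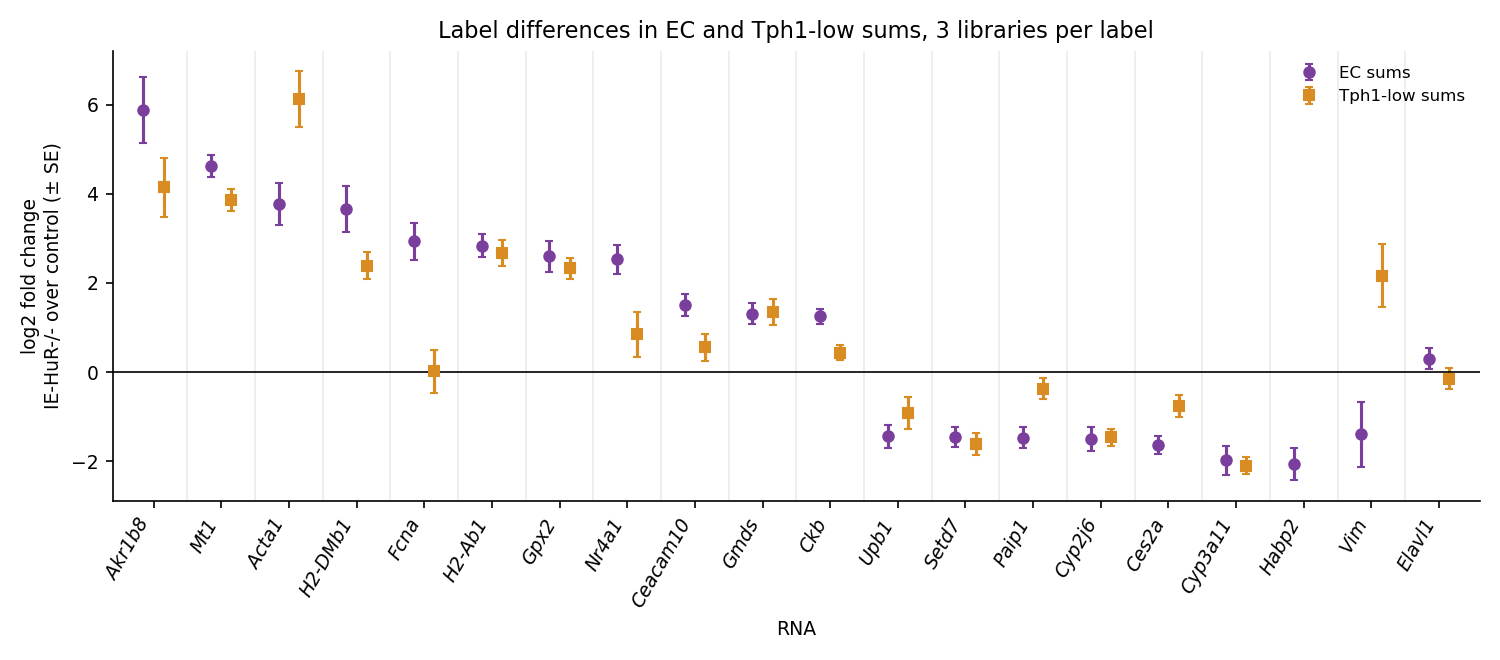
Points give the log2 fold change of IE-HuR-/- over control with its SE in EC sums and in Tph1-low sums, 3 libraries per label, for the 18 RNAs called in EC, Vim and Elavl1. Habp2 has no value in Tph1-low sums, and the size of the Akr1b8 fold rests on the fit's prior count because its controls hold 1 UMI. Vim lies at -1.39 in EC and 2.16 in Tph1-low sums, and Mt1 at 4.62 and 3.87.

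For 9 of the 18 RNAs called in EC, the log2 fold changes in both classes stand side by side as follows. The log2 fold change in Tph1-low sums was 3.87 for Mt1, 2.68 for H2-Ab1, 2.33 for Gpx2 and -2.10 for Cyp3a11, against 4.62, 2.84, 2.59 and -1.98 in EC. It was 0.85 for Nr4a1 (edgeR adjusted p = 0.351), 0.44 for Ckb (0.121), 0.55 for Ceacam10 (0.328), 0.02 for Fcna (0.987) and -0.38 for Paip1 (0.375), which edgeR did not call in Tph1-low sums. The interaction test called none of these 9 RNAs, so no difference between the classes was shown for them. Nr4a1, for one, had an interaction of 1.61 (SE 0.61, edgeR adjusted p = 0.882). The unadjusted edgeR p of the interaction was 0.00129 for Fcna, 0.00644 for Paip1, 0.00723 for Ckb, 0.0180 for Nr4a1 and 0.0669 for Ceacam10. Among all RNAs in the interaction test, 5.39% had an unadjusted p under 0.05. These RNAs were picked by calls on the same sums, so their unadjusted values are descriptions.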

How the data were processed

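Epithelial suspensions of 3 control and 3 IE-HuR-/- libraries were analysed from the gene-by-barcode matrices of UMI counts deposited by the authors, which hold 32285 features and were not normalized. The matrix headers name Cell Ranger 6.1.2, and the submitters' processing notes name mm10, Cell Ranger and Seurat. The study's methods name other kit and software versions. Gene positions are from GENCODE on GRCm38.

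Barcodes were gated as described, and UMIs of each class were summed per library. No doublets were called. Labels were compared with edgeR 4.0.16 (quasi-likelihood test with TMM scaling, robust, on RNAs left by filterByExpr, set to 10 counts and 15 in total, Benjamini-Hochberg adjusted p under 0.05) in R 4.3.3 with limma 3.58.1. SE was the log2 fold change divided by the square root of F. The 7 gate RNAs stayed in the fits and in the adjustment but were given no call. The interaction of class and label was fitted on 12 sums with library as a block. DESeq2 1.42.0 was an alternative. Shares were compared by two-sided exact permutation tests, and Python 3.11.15, numpy 2.4.6, scipy 1.17.1, pandas 2.3.3 and matplotlib 3.10.9 were used. Intervals and floors (3 counts) cover counting error only.

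The members and lists were chosen with earlier results of these data known. Named RNAs were the 10 largest ratios of each sign in the class contrast, called RNAs with non-overlapping labels and at least 50 CPM under 1 label (10 per sign at most), called interactions, and of each list the members called, the 4 highest and those at 0. Akr1b8, Fcna, Habp2, Sst, Agr2 and some further list members were named outside this rule, after their values were seen. On counts simulated for the EC comparison, edgeR recovered 35.8% of RNAs changed by 1 log2 unit and 96.8% of those changed by 2, where 8.21% of the RNAs called in the second simulation were false calls. For the interaction it recovered 82% of RNAs changed by 2 log2 units. These simulations gave all RNAs the same dispersion and changed only RNAs above a minimum level in EC sums. Recovery of scarcer RNAs, or of RNAs with a wider spread between libraries, was not simulated. Reg3b, at a log2 fold change of 2.36 in EC sums, was not called (edgeR adjusted p = 0.73). Libraries of 1 label differed by more than sampling noise (chi-square per degree of freedom from 3.59 to 8.57).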

Additional observations from a re-analysis of the deposited data

Results flagged for a closer look

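Vim was the RNA whose label difference differed between the classes by the interaction test. The label difference in EC minus that in Tph1-low sums was -3.46 on the log2 scale (SE 0.43, edgeR adjusted p = 0.00744, n = 3 libraries per label). All 3 IE-HuR-/- values lay above the control values in Tph1-low sums, whereas the labels overlapped in EC sums. Fibroblast markers, summed, reached 861 CPM in the Tph1-low sum of IE-HuR-/- 3, and without that library the difference was -3.05 (edgeR adjusted p = 0.0388). Myeloid markers in EC sums and B or plasma markers in both classes also differed by label, and their part was not tested. Vim was not called without control 2 (-3.57, edgeR adjusted p = 0.126), without control 3 (-3.08, 0.161), with at most 15% mt- UMIs (-3.39, 0.097) or without the 10% of EC barcodes with most UMIs (-3.16, 0.0867).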

How the results depend on the processing

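The number of RNAs called between labels in EC sums, 18, was 9 with at most 15% mt- UMIs, 4 without the 10% of EC barcodes with most UMIs, 35 with DESeq2, 174 with no filter on low counts, and between 8 and 40 with 1 library left out. With replicate number as a block it was 8, and the numbers did not pair the libraries (correlation of same-numbered libraries -0.104, 0.0161 and -0.177). The interaction count, 1, was 4 with Tph1 at 1 in 1000 UMIs, 0 with at most 15% mt- UMIs, 2 with 4 of the 6 gate RNAs, 0 without the 10% of EC barcodes with most UMIs, 62 with no filter, and between 0 and 3 with 1 library left out. It was 4 without barcodes high in a hormone, an alternative chosen after seeing the data, as was leaving out barcodes with fibroblast or erythroid markers. The 209 RNAs of the class contrast became 537 with Tph1 at 1 in 1000 UMIs, 430 without the 10% of EC barcodes with most UMIs and 78 with a pseudocount of 100 CPM. The EC share among enteroendocrine barcodes, -1.09 points, turned to 0.472 with 10 Tph1 UMIs, 5.35 with 4 of the 6 gate RNAs and 2.47 without barcodes over 5% enterocyte UMIs, and ranged from -3.94 to 4.08 with 1 library left out. The share among kept barcodes stayed lower in IE-HuR-/- libraries in every alternative run (-0.21 to -0.0766 points). Reg3b turned to -0.15 and Reg3g to -0.66 without the 10% of EC barcodes with most UMIs, and S100g ranged from -2.58 to 0.0041 with 1 library left out. The cause was not tested, except that fewer barcodes or libraries enter some of these fits.

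With 18 to 42 EC barcodes per library, changes of 1 log2 unit were mostly missed in the simulated counts, so a missing call does not show that a level was unchanged. Free RNA, mixed droplets and the makeup of the suspensions were not separated from expression.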
